A study of Lotus japonicus with 24 samples.

Results

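Asparagine synthetase makes asparagine from aspartate with the amide nitrogen of glutamine, and ATP drives the reaction. Plants carry a small family of these genes, and in temperate legumes such as *Lotus japonicus* asparagine is a main carrier of nitrogen from the root and its nodules to the shoot. The genes described here are the rows of the expression table whose description holds the words asparagine synthetase, and 6 of the 30243 genes in the table meet this rule. Of these, 4 are expressed, namely *LjASN1*, *LjASN2*, *LjASN3* and a gene for a protein with an asparagine synthetase domain. The other 2 are low-confidence models with almost no reads. The questions were how much each copy contributes in each tissue, how each copy differs between nitrogen sources, and whether the other copies are higher where *LjASN1* is mutated.

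The table holds RNAseq data of shoots and roots of WT plants (ecotype Gifu) and of *Ljasn1‐2*, a single line that is homozygous for an insertion of the retrotransposon LORE1 in exon 8 of *LjASN1*. Non‐symbiotic (NS) plants received 5 mM NH4NO3 and 3 mM KNO3. Symbiotic (S) plants were nodulated by *Mesorhizobium loti* and received no combined nitrogen, with 3 mM KCl. Genotype, tissue and condition give 8 groups of 3 libraries, each from 10 pooled plants. By the study's methods NS plants were harvested 26 days and S plants 37 days after planting, after 8 h of light, so that nitrogen source and age cannot be told apart, whereas the labels state 40 days and 4 h of light throughout. Roots under S conditions carry nodules, and a difference in roots between S and NS can come from a different mix of cells or from a different amount of RNA per cell, which bulk samples do not tell apart. Summed leghemoglobin FPKM (4 genes, the oxygen carriers of nodules) ranged from 6592 to 15020 in roots S and was at most 1.03 in all other libraries. The 25 genes for chlorophyll-binding proteins and the small subunit of RuBisCO, markers of green tissue, summed to 40650 to 68050 FPKM in shoots and 130 to 589 in roots. Each library had between 37.5 and 66.8 M reads on genes. Expression is given in FPKM, which relates the fragments of a gene to its length and to the depth of the library, a unit that allows levels of different genes to be compared.

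In the assembly named LjG1.1 in the table, *LjASN1* (LotjaGi1g1v0118200) lies on chromosome 1 from 18678532 to 18685507 on the plus strand, with a listed length of 3454 bases. *LjASN2* (LotjaGi6g1v0130800) lies on chromosome 6 from 36808984 to 36813744 on the plus strand, with 3357 bases. The gene called *LjASN3* here (LotjaGi6g1v0088100) has asparagine synthetase 3 of Arabidopsis as the match in its description, and lies on chromosome 6 from 17798176 to 17804573 on the minus strand, with 2123 bases. LotjaGi4g1v0087300, on chromosome 4 from 11604800 to 11615223 on the minus strand, is described by its likeness to asparagine synthetase domain-containing protein 1 of chicken and is called ASNSD1-like below. The low-confidence models LotjaGi1g1v0413600_LC and LotjaGi1g1v0413500_LC share the positions 90565764 to 90573752 of chromosome 1, one on each strand, and both are described by their likeness to *LjASN1*. The first had 6 reads in all 24 libraries together, in 2 *Ljasn1‐2* libraries of roots S, and the second had 0. Neither passed the filter for testing, which asked for at least 1 FPKM in at least 3 libraries of a comparison. How reads that match more than one gene were counted is not given in the sources used here.

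The study told the 3 main copies apart with pairs of oligonucleotides designed for each of them. It followed the insertion with a pair that flanks it, mixed with another primer that is not shown here. The oligonucleotides below are shown 5′ to 3′ because the study followed its transcripts and its allele with them. The genes below were named from their descriptions, and these sequences were not matched to them. The oligonucleotides were also not used to obtain the RNAseq values.
LjASN1_F: acttttactgttcaggatggaatagatg
LjASN1_R: ggaagtacaagtacccaccaaaaatctc
LjASN2_F: tcagtgagcaaaggtgttgaacc
LjASN3_F: cgaactggcagtgattgtgaagtg
LjASN3_R: atgccaatagcatcacgagcag
Ljasn1-2geno_F: ccttgcggcatgtttctgtgtgaa
Ljasn1-2geno_R: tggcaaccacaaaagctgctgaaca
The 7 sequences shown are between 22 and 28 bases long. Among them the *LjASN1* pair is the poorest in G and C, with 35.7% and 42.9%, and the *LjASN3* pair has 50% in both.

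*LjASN1* was examined first because it is the mutated gene. In shoots NS it was at 472, 431 and 387 FPKM in the WT libraries (replicates 1 to 3) and at 24.6, 37.1 and 39.2 FPKM in *Ljasn1‐2*. In shoots S it was at 78.8, 84.3 and 98.6 FPKM in WT and at 3.76, 5.89 and 4.65 FPKM in the mutant. Every mutant library lay below every WT library of the same tissue and condition, in roots as well. In roots NS the WT libraries were at 653, 695 and 563 FPKM and the mutant libraries at 52.7, 65.0 and 119 FPKM. In roots S the values were 148, 161 and 92.5 FPKM in WT and 4.62, 7.37 and 15.1 FPKM in the mutant. A residual signal was thus present in all 12 mutant libraries, from 426 to 21224 reads per library. The mean of the mutant was 7.83% of the WT mean in shoots NS, 5.46% in shoots S, 12.4% in roots NS and 6.73% in roots S. Whether the residual reads lie before or after the insertion was not tested, since the table holds 1 value per gene.

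On the scale of log2(FPKM + 1), used for all tests below, *LjASN1* fell in the mutant in each comparison. The log2 difference, *Ljasn1‐2* over WT, was -3.66 in shoots NS, -3.95 in shoots S, -3.08 in roots NS and -3.85 in roots S. The adjusted p of limma was 3.13e-04 and 3.78e-07 in the 2 shoot comparisons, and 0.0378 and 0.0486 in the 2 root comparisons. It was the only member called in each of the 4 comparisons, that is, 1 of 4 members tested in shoots NS and roots S and 1 of 3 in shoots S and roots NS. Over all genes tested 0.433% were called in shoots NS, 0.106% in shoots S, 0.0433% in roots NS and 0.0308% in roots S. The genotype difference of *LjASN1* was not shown to depend on the condition. The interaction was -0.29 in shoots (95% interval -0.84 to 0.26, limma adjusted p = 1) and -0.77 in roots (-1.97 to 0.43, limma adjusted p = 1.00). The root calls were close to the threshold and were lost when single libraries were left out, except *Ljasn1‐2* replicate 3 in each condition. Without one of the other 5 libraries the adjusted p ranged up to 0.429 in roots NS and up to 0.463 in roots S, while the log2 difference stayed between -3.17 and -2.84 and between -4.10 and -3.50. Without *Ljasn1‐2* replicate 3, which had the highest residual signal of its group in both conditions, the log2 difference was -3.42 in roots NS (adjusted p = 0.00568) and -4.26 in roots S (adjusted p = 0.0166). When limma blocked on the replicate number, the adjusted p was 0.00256 in roots NS and 8.89e-04 in roots S. Those fits called 4.47% and 1.6% of all genes.

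**Figure D1:**
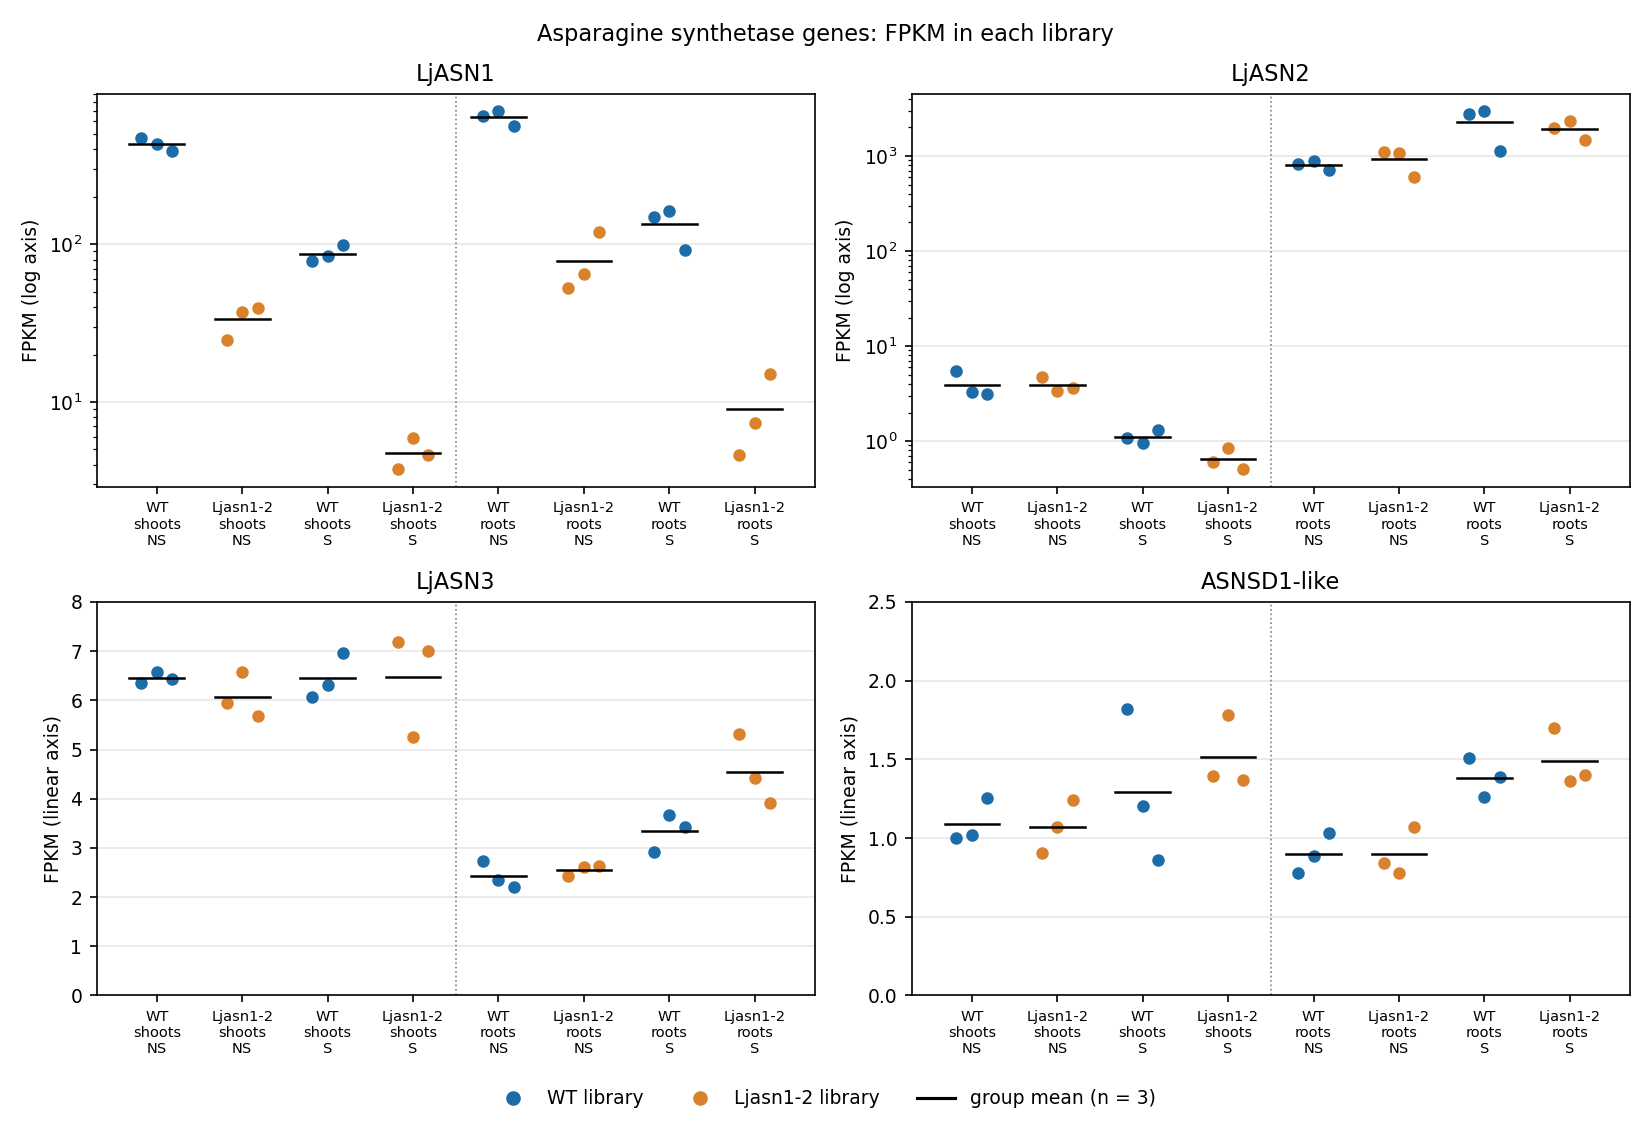
FPKM of the 4 expressed genes in each of the 24 libraries, with the group mean as a black line. *LjASN1* and *LjASN2* are on log axes and the other 2 genes on linear axes that start at 0. *LjASN2* was between 596 and 2955 FPKM in all root libraries and between 0.509 and 5.42 FPKM in all shoot libraries, whereas *LjASN1* of WT was between 92.5 and 695 FPKM in roots and between 78.8 and 472 FPKM in shoots.

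*LjASN1* was higher under NS than under S conditions in both tissues of WT. The order of its group means was WT roots NS (637 ± 67.3 FPKM, SD, n = 3), WT shoots NS (430 ± 42.2), WT roots S (134 ± 36.6), WT shoots S (87.2 ± 10.2) and then the 4 mutant groups. The ranges of WT roots S and WT shoots S overlapped, as did those of WT shoots S and *Ljasn1‐2* roots NS, and those of the mutant roots S and shoots S. The 2 NS groups of WT did not overlap with each other or with a S group. From NS to S, *LjASN1* fell by 2.29 in WT shoots (limma adjusted p = 2.35e-04) and by 2.28 in WT roots (adjusted p = 7.33e-04), 4.89-fold and 4.84-fold. The fall in shoots minus that in roots was -0.01 (95% interval -0.66 to 0.63, limma adjusted p = 0.983). The residual signal in the mutant followed the same direction. The log2 difference, S over NS, was -2.58 in *Ljasn1‐2* shoots (limma adjusted p = 5.65e-05) and -3.05 in *Ljasn1‐2* roots (adjusted p = 0.00181).

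The difference of *LjASN1* between shoots and roots of WT did not pass the test. The log2 difference, shoots over roots, was -0.57 under NS (95% interval -1.08 to -0.05, limma adjusted p = 0.0647) and -0.58 under S conditions (-1.10 to -0.06, adjusted p = 0.0593). The call was gained under several alternatives. On the recovered reads, limma with voom gave -0.57 under NS (adjusted p = 0.0215). With quantile normalization they were -1.14 and -0.81 (limma adjusted p = 5.55e-05 and 0.00185). With each library scaled to the same sum of FPKM (TPM) they were -1.04 and -1.002 (adjusted p = 9.36e-05 and 6.20e-04), but this scaling also moved the median of all genes by -0.44 and -0.39. So it was without WT roots replicate 3, with -0.65 in NS (adjusted p = 0.0244) and -0.83 in S (adjusted p = 0.00126). In *Ljasn1‐2* the residual signal was lower in shoots than in roots under NS, by -1.14 (limma adjusted p = 0.0141), and without *Ljasn1‐2* shoots NS replicate 1 this was -0.94 (adjusted p = 0.0555). Under S it differed by -0.68 (adjusted p = 0.133), and without *Ljasn1‐2* roots S replicate 1 by -1.02 (adjusted p = 0.0158).

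*LjASN2* was the copy of the roots. In roots NS it was at 832, 888 and 715 FPKM in WT and at 1097, 1077 and 596 FPKM in *Ljasn1‐2*. In roots S it was at 2775, 2955 and 1134 FPKM in WT and at 1995, 2316 and 1480 FPKM in the mutant. All 6 libraries of roots S were above all 6 of roots NS, and replicate 3 was the lowest of its group in each of the 4 root groups. In shoots NS it was at 5.42, 3.27 and 3.11 FPKM in WT and at 4.73, 3.39 and 3.66 FPKM in the mutant. In shoots S it was at 1.08, 0.959 and 1.31 FPKM in WT and at 0.600, 0.841 and 0.509 FPKM in the mutant, so that here the genotypes did not overlap. These shoot values rest on 59 to 857 reads per library. A placement of the decimal point that makes all 3 values of a shoots NS group 10 times higher, with group means of 39.3 FPKM in both genotypes, would also keep the row order of the table, but it would need 3 read counts that are each a multiple of 10. The values of shoots S include intact ones below 1 FPKM.

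The difference of *LjASN2* between tissues was the largest among the 4 expressed genes in each of the 4 comparisons. Shoots over roots, the log2 difference was -7.39 in WT NS (limma adjusted p = 2.16e-08) and -9.96 in WT S (adjusted p = 1.56e-08). In the mutant it was -7.51 (adjusted p = 8.80e-08) and -10.17 (adjusted p = 5.95e-09). The 5 genes for Casparian strip membrane proteins, markers of the root endodermis, summed to 37.6 to 183 FPKM in roots. They reached at most 0.189 FPKM in WT shoots S and were at 0 in every library of the other 3 shoot groups. In each of the 4 tissue comparisons 4 members were tested. Of these, 2 were called in WT NS, where 52.5% of all genes were called, and 2 in WT S (55.1% of all genes). In *Ljasn1‐2*, 3 were called under NS (52.7% of all genes) and 1 under S conditions (54.5% of all genes).

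The 2 tissues moved in opposite directions with the condition for *LjASN2*. From NS to S it fell by 1.19 in WT shoots (limma adjusted p = 0.00773) and dropped by 1.57 in *Ljasn1‐2* shoots (adjusted p = 1.83e-04). In *Ljasn1‐2* shoots S every value was below 1 FPKM, so that the gene passed the filter through the NS libraries alone. The adjusted p in *Ljasn1‐2* shoots is therefore given only as a description. In WT roots *LjASN2* rose by 1.38 (limma adjusted p = 0.0421), a 2.60-fold higher level under S conditions. The difference between the condition effects of shoots and roots in WT was -2.57 (standard error 0.43, 95% interval -3.51 to -1.63, limma adjusted p = 0.00113). *LjASN2* was the only one of the 4 members tested that was called here, where 19.1% of all genes were called. In *Ljasn1‐2* roots the difference was 1.09 (95% interval 0.29 to 1.90, limma adjusted p = 0.0511). Same-numbered root libraries deviated together from their group means. A limma fit that blocked on the replicate number gave an adjusted p of 6.06e-04 in *Ljasn1‐2* roots and of 0.00449 in WT roots. The call in WT roots was lost without WT roots NS replicate 1 (1.40, limma adjusted p = 0.114), 2 (1.45, 0.104) or 3 (1.29, 0.0921), and without WT roots S replicate 1 (1.18, 0.154) or 2 (1.13, 0.142), and with no filter on low values (0.147). Leaving out the lowest library, WT roots S replicate 3, raised the difference to 1.82 (adjusted p = 0.00404). In the mutant, the call was gained without *Ljasn1‐2* roots S replicate 3 (1.27, adjusted p = 0.0290). It was also gained with at least 5 FPKM in 3 libraries (limma adjusted p = 0.0382), quantile normalization (0.78, 0.00868), TPM scaling (0.90, 0.0133), all 24 libraries in 1 fit (0.00491) and voom on the recovered reads (0.0359).

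The level of nodule transcripts also varied among the libraries of roots S. Summed leghemoglobin was 13380, 14160 and 6592 FPKM in WT replicates 1 to 3 and 15020, 12770 and 7856 FPKM in those of *Ljasn1‐2*. Replicate 3 was the lowest of its group for leghemoglobin and for *LjASN2* in both genotypes. In WT replicate 2 was the highest for both, whereas *Ljasn1‐2* replicate 1 had more leghemoglobin and less *LjASN2* than *Ljasn1‐2* replicate 2. The part of nodule tissue in the differences of *LjASN2* between libraries was not tested.

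*LjASN3* was a gene of low level, with group means of 2.42 to 6.48 FPKM. It was at 5.25 to 7.18 FPKM in the 12 shoot libraries, with group means of 6.06 to 6.48 FPKM in the 4 groups. In roots NS it was at 2.72, 2.35 and 2.20 FPKM in WT and at 2.43, 2.62 and 2.63 FPKM in the mutant. In roots S it was at 2.91, 3.67 and 3.43 FPKM in WT and at 5.31, 4.41 and 3.92 FPKM in the mutant, so that roots S lay above roots NS and the mutant above WT in roots S, without overlap. It was higher in shoots than in roots, by 1.13 in WT NS (limma adjusted p = 5.06e-05), by 0.78 in WT S (adjusted p = 8.74e-04) and by 0.99 in *Ljasn1‐2* NS (adjusted p = 1.52e-04). The call in WT S was lost with TPM scaling (0.48, limma adjusted p = 0.0550). In *Ljasn1‐2* S this difference was 0.43 (limma adjusted p = 0.0520). It passed the threshold without *Ljasn1‐2* shoots S replicate 2 (0.55, adjusted p = 0.0324), without *Ljasn1‐2* roots S replicate 1 (0.53, 0.0339), with at least 5 FPKM in 3 libraries (0.0431) or with all 24 libraries in 1 fit (0.00306), and with TPM scaling it was 0.13 (0.486). From NS to S, *LjASN3* rose by 0.63 in *Ljasn1‐2* roots (limma adjusted p = 0.0152), and in WT roots the difference was 0.34 (adjusted p = 0.107, and 0.0297 with all 24 libraries in 1 fit). The call in the mutant was lost without roots NS replicate 1 (0.61, limma adjusted p = 0.0607) or 2 (0.65, 0.0619), without roots S replicate 1 (0.54, 0.0629) or 2 (0.65, 0.0629), and with TPM scaling (0.56, 0.0522). Neither the genotype difference in roots S (0.35, 95% interval -0.01 to 0.72, limma adjusted p = 1.00) nor its interaction with the condition (0.29, adjusted p = 1.00) passed the test. In shoots the condition made a difference of 0.00 in WT and 0.07 in the mutant (limma adjusted p = 0.993 and 0.803).

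The ASNSD1-like gene was at 0.776 to 1.82 FPKM in all 24 libraries, from 87 to 233 reads per library, and the ranges of neighbouring groups overlapped all along the order of their means. Neither tissue nor genotype gave a call for it, and in roots NS it did not pass the filter for the comparison of genotypes. From NS to S, the differences were 0.33 in WT roots (limma adjusted p = 0.0769) and 0.39 in *Ljasn1‐2* roots (adjusted p = 0.0593). Blocking on the replicate number, limma gave an adjusted p of 0.0386 and 0.0274.

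In each of the 4 comparisons of S with NS, 2 of the 4 members tested were called. The share of all genes called was 6.18% in WT shoots, 24.1% in WT roots, 11.9% in *Ljasn1‐2* shoots and 27.8% in *Ljasn1‐2* roots. With the replicate number as a block, 3 of 4 members were called in WT roots, where 48.1% of all genes were, and 4 of 4 in *Ljasn1‐2* roots, where 51.9% were. The interaction of genotype with condition gave 0 of 4 members in shoots and 0 of 4 in roots, where limma called 0.216% and 0% of all genes. At an unadjusted p under 0.05 it also gave 0 members in either tissue, beside 4.18% of all genes in shoots and 4.35% in roots, and so did voom on the recovered reads with adjusted p.

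**Figure D2:**
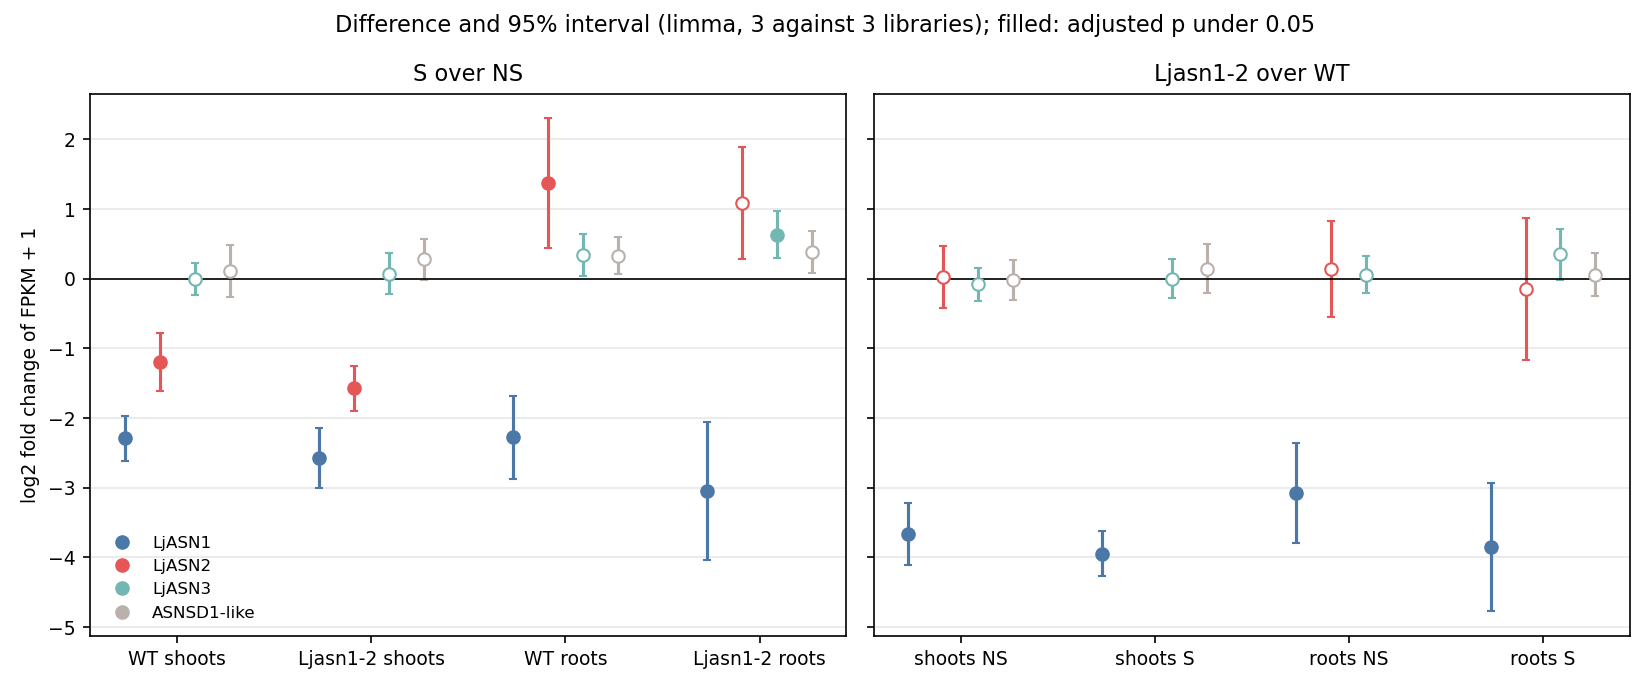
Log2 difference of FPKM + 1 with its 95% interval for the 4 expressed genes, S over NS at the left and *Ljasn1‐2* over WT at the right. Each point compares 3 with 3 libraries, and filled points have a limma adjusted p under 0.05. *LjASN2* lies below 0 in shoots and above 0 in roots at the left, and at the right only *LjASN1* has filled points.

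The copies divided the transcript pool in a different way in each tissue and condition. The FPKM of the 6 genes was summed in each library, and a gene's share is its part of that sum. In WT shoots NS *LjASN1* made up 97.4%, 97.5% and 97.3% of a sum of 441 ± 43.2 FPKM (SD, n = 3). In WT shoots S its share was 89.8%, 90.8% and 91.5% of a sum of 96.1 ± 10.4 FPKM, with most of the rest (6.72% on average) from *LjASN3*. In WT roots NS *LjASN1* held 43.9%, 43.8% and 43.9% and *LjASN2* 55.9% on average, of a sum of 1452 ± 155 FPKM. In WT roots S *LjASN1* held 5.06%, 5.17% and 7.51% and *LjASN2* 93.8% on average, of a sum of 2427 ± 1040 FPKM. The share of *LjASN1* was therefore lower under S conditions in every library of the same tissue. The mean difference, S minus NS, was -38.0 percentage points in roots and -6.67 in shoots. Over both tissues it was -22.3 percentage points (exact permutation test with labels exchanged within tissue, two-sided p = 0.0050, the smallest that the 400 arrangements allow). The SD of this share over the 3 libraries of WT roots NS was 0.0638 percentage points, although their sums ranged from 1282 to 1587 FPKM.

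**Figure D3:**
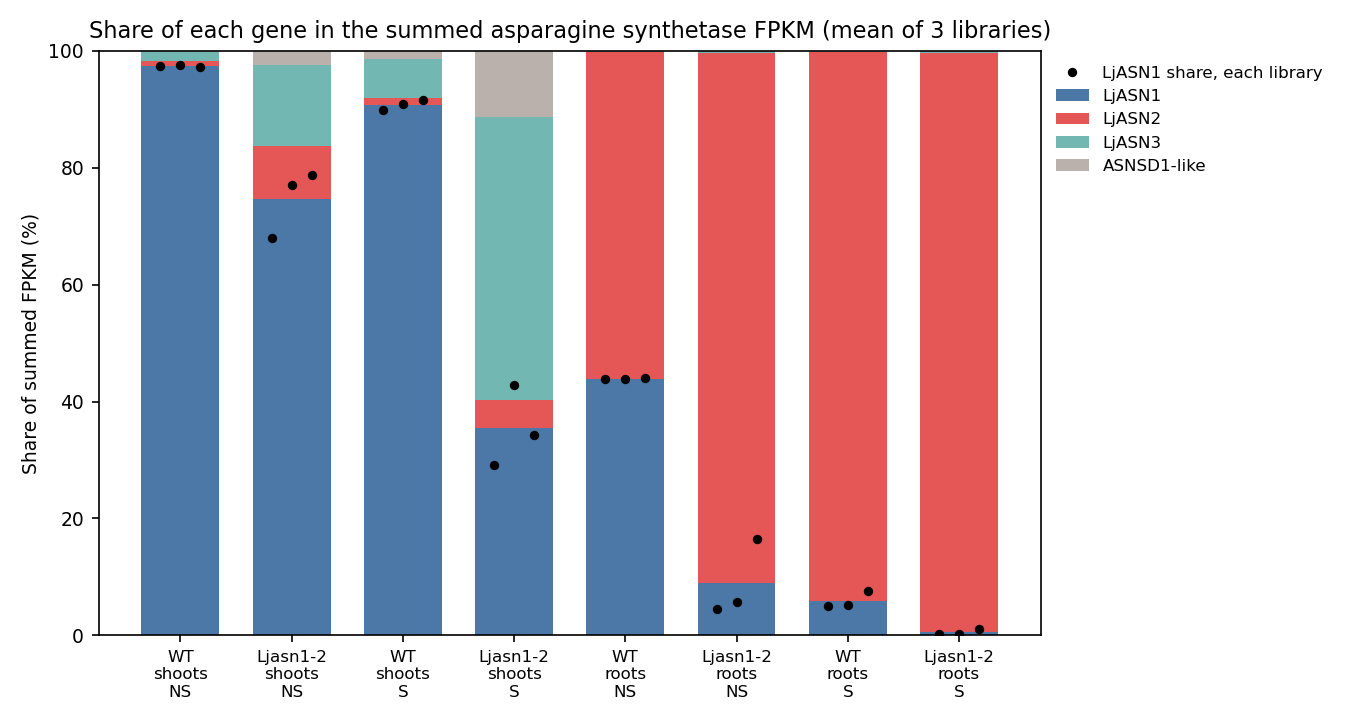
Mean share of each gene in the summed asparagine synthetase FPKM of the 8 groups (stacked bars, percent, n = 3), with the *LjASN1* share of each library as a black point. *LjASN1* made up 97.4% in WT shoots NS and 5.91% in WT roots S.

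The mean summed level moved with the condition in opposite directions in the 2 tissues of WT. It was 3.29-fold higher in roots than in shoots of WT under NS, and 25.3-fold higher under S conditions. From NS to S the mean sum went to 21.8% of its level in WT shoots and to 167% in WT roots. The conditions overlapped in WT roots, where the sum of S replicate 3 was 1231 FPKM, below the lowest NS library at 1282 FPKM. This difference of the sums between conditions was not tested. In *Ljasn1‐2* the sum was 44.7 ± 7.43 FPKM in shoots NS and 13.4 ± 0.425 FPKM in shoots S, which is 10.1% and 14.0% of WT. In roots it was 1006 ± 249 FPKM under NS and 1945 ± 418 FPKM under S conditions, 69.3% and 80.2% of WT. The sums of the 2 genotypes overlapped in roots S, and in the other 3 pairs of groups they did not. In mutant shoots S *LjASN3* was on average the largest part of the sum, with 48.5 ± 9.15%, followed by the residual *LjASN1* signal with 35.4 ± 6.93%. The order was reversed in replicate 2, with 42.81% for *LjASN1* and 38.15% for *LjASN3*. In mutant roots *LjASN2* held 90.7 ± 6.75% under NS and 99.2 ± 0.455% under S conditions.

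Whether the other copies are higher in the mutant was asked of each gene and of their sum. *LjASN2* differed between the genotypes by 0.02 in shoots NS (95% interval -0.43 to 0.46), by 0.14 in roots NS (-0.55 to 0.83) and by -0.15 in roots S (-1.16 to 0.87), with a limma adjusted p of 1 in each. In shoots S it did not pass the filter on low values, and without that filter it was -0.36 (-0.61 to -0.11, limma adjusted p = 0.634). *LjASN3* differed by -0.08 in shoots NS (-0.32 to 0.16), by 0.00 in shoots S (-0.28 to 0.28) and by 0.06 in roots NS (-0.21 to 0.32). The upper bounds reached 0.83 and 0.87 for *LjASN2* in roots NS and S, and 0.72 for *LjASN3* in roots S. A moderate rise in the mutant would not have been detectable there. In the other comparisons of *LjASN2* and *LjASN3* the upper bounds were at most 0.46. For the ASNSD1-like gene they were 0.27 in shoots NS, 0.51 in shoots S and 0.37 in roots S. This scale understates the change of genes at low FPKM. The summed FPKM of the genes other than *LjASN1* was 11.5 ± 1.12 in WT and 11.1 ± 0.488 in *Ljasn1‐2* shoots NS, and 8.86 ± 0.334 and 8.65 ± 0.686 in shoots S. In roots it was 815 ± 88.1 and 927 ± 283 under NS, and 2293 ± 1003 and 1936 ± 422 under S conditions. The mean log2 difference, mutant minus WT, over the 4 pairs of groups was -0.02 (exact permutation test within tissue and condition, two-sided p = 0.862, 160000 arrangements). In single pairs of groups it was 0.14 in roots NS, -0.15 in roots S, and -0.05 and -0.04 in shoots under NS and S.

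**Figure D4:**
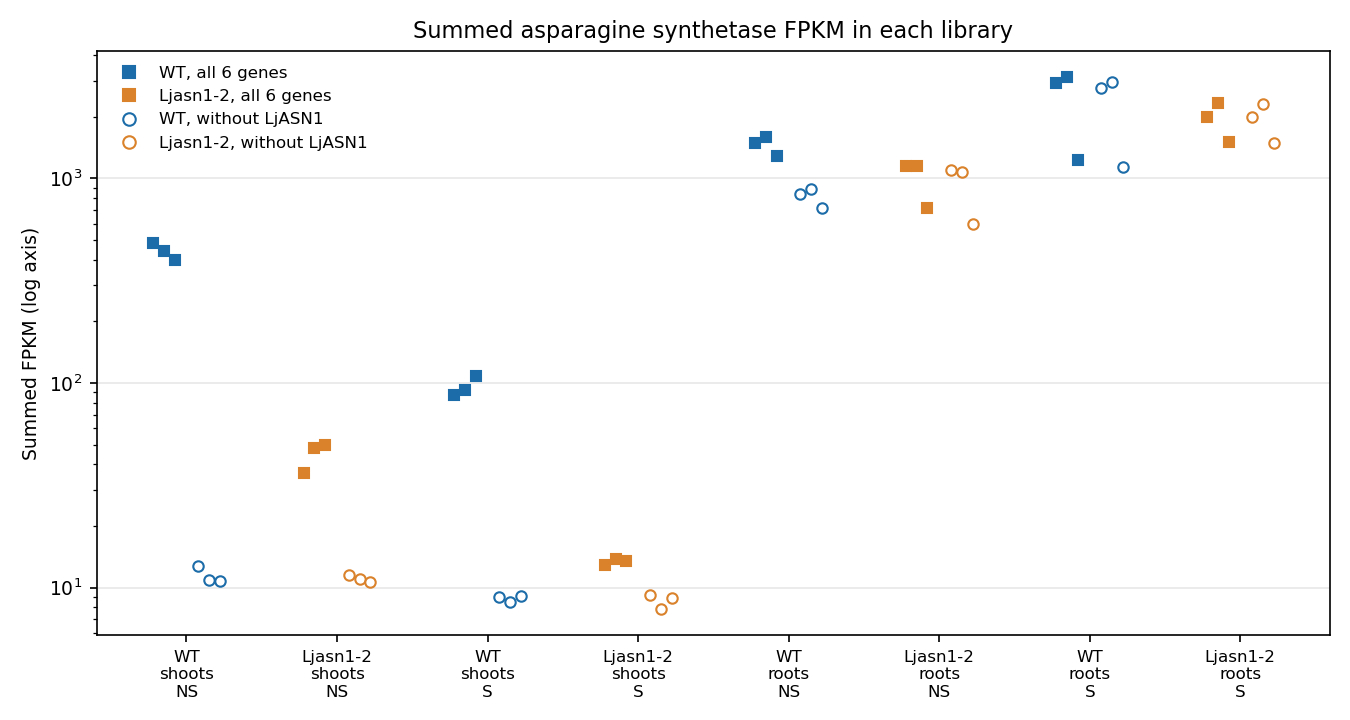
Summed FPKM in each library (log axis) of all 6 genes (filled squares) and of the 5 genes without *LjASN1* (open circles). Without *LjASN1* the libraries of both genotypes lie between 7.87 and 12.8 FPKM in shoots and between 600 and 2960 FPKM in roots.

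Genes for enzymes around asparagine synthesis were taken from 9 lists set by words in their descriptions, with 40 genes in all. In the 4 comparisons of genotypes limma called 0 of the 28 to 31 genes tested, on log2 values and with voom on the recovered reads alike. At an unadjusted p under 0.05 it gave 2 in shoots NS, 1 in shoots S, 1 in roots NS and 0 in roots S, where 5.04%, 6.66%, 4.97% and 2.83% of all genes were under it. With the replicate number as a block it called 1, in roots NS, where 4.47% of all genes were called, namely LotjaGi5g1v0031100 (-0.36, adjusted p = 0.0460), described as an asparaginase, an enzyme that releases ammonium from asparagine. From NS to S, 2 rose and 4 fell of 31 tested in WT shoots (6.18% of all genes called), and 3 rose and 6 fell of 29 in WT roots (24.1%). In *Ljasn1‐2*, 4 rose and 4 fell of 31 in shoots (11.9%) and 5 rose and 3 fell of 29 in roots (27.8%). With the block these counts were 10 and 4 in WT shoots (23.1% of all genes called), 10 and 8 in WT roots (48.1%) and 12 and 8 in *Ljasn1‐2* roots (51.9%). The median log2 difference of the lists together was 0.04 in WT shoots and 0.16 in WT roots, beside 0.03 and 0.01 over all genes tested. Without 3 genes described as folylpolyglutamate synthases, enzymes of folate metabolism whose name holds the same words, the counts of rises and falls were the same and the medians were 0.01 and 0.215. These 3 were set aside after the values were seen.

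The 2 enzymes that reduce nitrate to ammonium moved in the direction of *LjASN1*. Nitrate reductase (LotjaGi1g1v0152000) was at 207 ± 31.9 FPKM in WT shoots NS and 37.6 ± 2.16 in shoots S, and at 308 ± 48.5 and 28.9 ± 14.0 in WT roots NS and S. Nitrite reductase (LotjaGi4g1v0074400) was at 323 ± 53.1 and 16.2 ± 2.18 FPKM in WT shoots, and at 394 ± 33.6 and 34.6 ± 9.19 in WT roots. Both fell from NS to S in all 4 comparisons, with limma adjusted p of at most 5.83e-04.

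In roots, the most expressed genes of 2 enzymes around aspartate moved in the direction of *LjASN2*. The phosphoenolpyruvate carboxylase of highest expression (LotjaGi3g1v0158100), which supplies the carbon skeleton of aspartate, was at 75.1 ± 10.1 FPKM in WT roots NS and 491 ± 90.5 in roots S, and between 2.17 and 2.96 FPKM on average in the shoot groups. Its log2 difference was 2.68 in WT roots (limma adjusted p = 1.27e-04) and 2.84 in *Ljasn1‐2* roots (adjusted p = 3.73e-05). Aspartokinase (LotjaGi2g1v0104400), which leads aspartate into the synthesis of lysine, threonine and methionine, rose by 2.83 in WT roots (adjusted p = 3.11e-05) and fell by 0.56 in WT shoots (adjusted p = 0.0452). Of the 4 phosphoenolpyruvate carboxylase genes tested in WT roots, 1 rose and 1 fell, and of the 3 aspartokinase genes 1 rose. The one that fell, named after its value was seen, was LotjaGi3g1v0042000 (-0.68, limma adjusted p = 0.0339), described as a housekeeping isozyme. The chloroplastic glutamine synthetase (LotjaGi6g1v0300700), which makes the amide donor glutamine, differed from NS to S by -0.02 in WT shoots and by -0.03 in WT roots (limma adjusted p = 0.976 and 0.964). Ferredoxin-dependent glutamate synthase (LotjaGi1g1v0664300) fell by 1.06 in WT roots (adjusted p = 0.0201), and in *Ljasn1‐2* roots its difference was -1.01 (adjusted p = 0.0505, with the block 0.00143). The most expressed aspartate aminotransferase (LotjaGi1g1v0400200) and glutamate dehydrogenase (LotjaGi3g1v0023400) gave no call from NS to S in WT, with differences from -0.25 to 0.26, although with the block the first had an adjusted p of 0.0325 in shoots (0.22) and 0.0441 in roots (0.26). The asparaginase named above was at 167 ± 18.4 and 193 ± 8.15 FPKM in WT roots NS and S, and at 129 ± 9.57 and 200.2 ± 23.5 in those of *Ljasn1‐2*. It rose by 0.62 from NS to S in *Ljasn1‐2* roots (limma adjusted p = 0.0448, with the block 0.00179) and gave no call in WT. A difference between the genotypes in this rise was not shown. The interaction in roots was 0.41 (limma adjusted p = 0.9997, with the block 0.133).

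The genes with the pattern most like that of *LjASN1* were sought among 18162 genes by Pearson's r of log2(FPKM + 1) over the 12 WT libraries. These libraries form 4 groups, so r describes mainly the group levels. The first was the nitrite reductase just described (r = 0.989). The second was LotjaGi3g1v0125200 (r = 0.971), described as uroporphyrinogen III methyltransferase, which acts in the synthesis of siroheme, the cofactor of nitrite and sulfite reductases. It was at 50.3 ± 9.35 FPKM in WT shoots NS, 3.94 ± 0.538 in shoots S, 63.6 ± 7.63 in roots NS and 12.9 ± 1.85 in roots S. The next were a bHLH041-like transcription factor (LotjaGi6g1v0230900, r = 0.968), a TauE/SafE-like protein (LotjaGi4g1v0045000, r = 0.959) and a gene described as a disease resistance protein (LotjaGi1g1v0654700, r = 0.950). In contrast to *LjASN1*, nitrite reductase was at 338 ± 32.7 FPKM in *Ljasn1‐2* shoots NS and 382 ± 100 in *Ljasn1‐2* roots NS, and it gave no call between the genotypes.

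For *LjASN2* the same search over all 24 libraries and 18746 genes gave an LTPG6-like lipid transfer protein (LotjaGi6g1v0037700, r = 0.995), a Hevamine-A-like chitinase (LotjaGi5g1v0294100, r = 0.994), a FAR1-related protein (LotjaGi1g1v0147500, r = 0.993), a GDSL esterase/lipase (LotjaGi4g1v0249800, r = 0.993) and a sulfate transporter (LotjaGi6g1v0354300, r = 0.992). All of them had their higher values in roots, and r is set mainly by the contrast between the 2 tissues. The Hevamine-A-like gene, for example, was at 408 ± 77.4 FPKM in WT roots S, 279 ± 81.0 in WT roots NS and 2.11 ± 1.51 in WT shoots NS.

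The 4 tested genes nearest to *LjASN1* were examined because they share its chromosome region with the insertion. Downstream, LotjaGi1g1v0118300_LC, a beta-galactosidase-like model on the minus strand whose nearer edge is 5026 bases away, gave no call in any comparison of genotypes. LotjaGi1g1v0118600, described as a kinase of the chloroplast ABC1 family, was tested in shoots and gave no call there either. Upstream, LotjaGi1g1v0118000_LC, described as MAPKKK17, a kinase of a signalling cascade, lies 109459 bases away. It was at 30.0 ± 1.87 FPKM in WT and 16.2 ± 2.10 in *Ljasn1‐2* roots NS, and at 26.2 ± 4.65 and 9.55 ± 2.43 in roots S, without overlap of the genotypes in either condition. The log2 difference was -0.86 (limma adjusted p = 0.230) and -1.37 (adjusted p = 0.372), and when limma blocked on the replicate number the adjusted p was 0.00927 and 0.00162. LotjaGi1g1v0118100, a protein phosphatase 2C gene 86496 bases away, differed by -0.99 in roots NS (limma adjusted p = 0.939) and by -1.11 in roots S (adjusted p = 1.00). With the block its adjusted p was 0.00295 and 0.0290, in fits that called 4.47% of all genes in roots NS and 1.6% in roots S. In shoots neither gene gave a call, with log2 differences of 0.01 to 0.17, and LotjaGi1g1v0118000_LC did not pass the filter in shoots S.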

How the data were processed

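RNA of shoots and roots was sequenced by Novogene from strand-specific polyA libraries. Per the labels the submitters' processing notes name fastp, featureCounts 1.5.0-p3 and DESeq2 1.20.0. The aligner and the handling of multi-mapped reads are not given in the sources used here. The authors deposited 1 table of FPKM with gene lengths, descriptions and positions. The unit is recorded as other, since 384363 of the 725832 values (53.0%), those of 1 or more, had lost their decimal point in the deposited table, while the 173921 values between 0 and 1 were intact. Intact values are whole multiples of what 1 read is worth in a library. Each damaged value was set to a whole number of reads, with the power of 10 chosen from the replicates and from the order of the rows, which is by decreasing sum. The smallest whole number was kept except for 4.2% of these values, and 26 genes, *LjASN2* among them, kept an open alternative. The restoration was tested on simulated data. All 24 columns of values were used. The reverse oligonucleotide for *LjASN2* is not reported here.

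limma 3.58.1 (R 4.3.3) was fitted to log2(FPKM + 1) with an intensity trend, on the 6 libraries of a comparison or the 12 of an interaction, for genes that reached 1 FPKM in 3 or more of them. Tests were two-sided, with Benjamini and Hochberg adjustment over all genes tested and a threshold of 0.05. Differences on this scale understate the change of genes near or below 1 FPKM. Shares and sums were computed in Python 3.11.15 (numpy 2.4.6, pandas 2.3.3) and compared by exact permutation tests, since 3 against 3 libraries cannot go below p = 0.10. The design assumed FPKM as labelled, and its test was kept after the points were restored. The fit was tested on simulated data with known changes.

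Replicates are pools of 10 plants numbered 1 to 3 in the labels. Same-numbered libraries deviated together, with every correlation of their deviations from the group means over 0.1, in the genotype comparisons of shoots NS, roots NS and roots S (mean r of 0.54 to 0.708) and in the comparisons of S with NS in WT shoots, WT roots and *Ljasn1‐2* roots (0.533 to 0.649), and not in the others. The labels do not say what a number shares.

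The genes and lists were chosen with earlier results of these data known. Besides the 6 genes, the text names the most expressed gene of each of 9 lists of related enzymes, the 5 genes most like *LjASN1* (12 WT libraries) and *LjASN2* (24 libraries), and the 2 nearest tested genes on either side of *LjASN1*. Alternatives were another pseudocount, filter, normalization or set of libraries, voom on the recovered reads, the replicate block, each library left out in turn, and the smallest placement of every decimal point.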

Additional observations from a re-analysis of the deposited data

Results flagged for a closer look

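The effect of the growth condition on *LjASN2* differed between tissues of WT by a test of the difference itself. The log2 difference between S and NS was -1.19 in shoots and 1.38 in roots, and the interaction was -2.57 (standard error 0.43, 6 libraries per tissue, limma adjusted p = 0.00113). All 3 WT shoot libraries under S were below all 3 under NS, and all 3 WT root libraries under S were above all 3 under NS. The age at harvest differs with the condition by the study's methods, and nodules are part of the roots S, so neither can be told apart from the condition.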

How the results depend on the processing

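The genotype call of *LjASN1* in roots was lost under several alternatives. It was kept with the replicate number as a block (limma adjusted p = 0.00256 in roots NS and 8.89e-04 in roots S). The number of asparagine synthetase genes called was 0 in roots NS with no filter, quantile normalization or TPM scaling, and 0 in roots S with a pseudocount of 0.1 FPKM, no filter, TPM scaling or voom on recovered reads. Among S against NS it was 1 in WT shoots and 1 in *Ljasn1‐2* shoots with at least 5 FPKM in 3 libraries, 1 in WT roots with no filter, and 4 in *Ljasn1‐2* roots with all 24 libraries in 1 fit. For shoots over roots in *Ljasn1‐2* S it was 2 with at least 5 FPKM in 3 libraries and 2 with all 24 libraries in 1 fit. Keeping the smallest placement of every point gave 0 in roots NS and 0 in roots S between genotypes, 1 in WT shoots and 0 in WT roots from NS to S, and 0 for the interaction with tissue. This setting breaks the row order of the table.

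Directions turned in comparisons without a call. With TPM scaling *LjASN3* between genotypes was 0.014 in shoots NS and 0.025 in shoots S, and from NS to S it was -0.089 in *Ljasn1‐2* shoots, and the interaction of *LjASN1* with tissue was 0.036. With quantile normalization *LjASN3* between genotypes in shoots S was 0.010 and the interaction of *LjASN1* was 0.32. With the smallest placement *LjASN1* of WT NS was 0.53 for shoots over roots, beside -0.57 as reported. TPM scaling moved the median of all genes by -0.44 to -0.34 in the tissue comparisons and by -0.17 to -0.09 from NS to S. The summed FPKM of the genes other than *LjASN1* differed by 0.023 on reads per gene, 0.0065 with TPM scaling and 0.25 with the smallest placement, and the exact p stayed between 0.636 and 0.950 over all its alternatives. The cause was not tested.

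When the replicates were left out one by one, the share of *LjASN1* differed by -22.9 to -21.9 percentage points (exact p = 0.0556, the smallest that 36 arrangements allow). The genes called ranged from 0 to 1 between genotypes in roots NS and from 0 to 1 in roots S, from 1 to 2 from NS to S in WT roots, from 1 to 2 in *Ljasn1‐2* shoots (without a NS library *LjASN2* fails the filter) and from 1 to 3 in *Ljasn1‐2* roots, and from 0 to 2 for shoots over roots in *Ljasn1‐2* S. *LjASN2* between genotypes ranged from -0.10 to 0.22 in shoots NS, from -0.013 to 0.43 in roots NS and from -0.59 to 0.10 in roots S. *LjASN3* ranged from -0.072 to 0.12 between genotypes in shoots S and from -0.052 to 0.035 from NS to S in WT shoots. The interaction of *LjASN1* with tissue ranged from -0.26 to 0.14.

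With the replicate number as a block, 4 members were called from NS to S in *Ljasn1‐2* roots and 3 for shoots over roots in *Ljasn1‐2* S, where the numbers did not pair the samples. The share of *LjASN1* kept its difference of -22.3 percentage points (exact p = 0.0312, the smallest of 64 arrangements). Among the asparagine synthetase genes, apart from the calls named with the results, the block changed 2 others, *LjASN1* and *LjASN3* for shoots over roots in *Ljasn1‐2* S (adjusted p = 0.0291 and 0.04998). Among the related enzymes and neighbours it also gave calls from NS to S in *Ljasn1‐2* roots for glutamate dehydrogenase LotjaGi3g1v0023400 (-0.28, 0.0467), aspartate aminotransferase LotjaGi1g1v0400200 (0.31, 0.0321) and LotjaGi1g1v0118100 (-0.55, 0.00452), and for the last in WT shoots (-0.27, 0.0446) and roots (-0.42, 0.0470). It gave 1 call among the listed enzymes for the interaction of genotype and condition in shoots, LotjaGi1g1v0358100, an asparaginase named after its value was seen (-1.13, 0.0411). Where the numbers did not pair the samples, nitrate reductase LotjaGi1g1v0152000 lost its call for shoots over roots in WT NS (0.0652), LotjaGi1g1v0400200 and aspartokinase LotjaGi2g1v0104400 gained one in *Ljasn1‐2* NS (0.0324 and 0.0330), and LotjaGi1g1v0118000_LC gained one from NS to S in *Ljasn1‐2* shoots (0.0455). For *LjASN2* in shoots the depth limits the precision, since the values rest on 59 to 857 reads.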
